A study of Homo sapiens with 5 samples.

Results

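YAP1, its paralog WWTR1 (the gene of TAZ), their DNA-binding partners TEAD1, TEAD2, TEAD3 and TEAD4, the kinases LATS1 and LATS2 that hold them in check, and the target genes CCN1 and CCN2 were examined for PHF8 at their promoters in SKMEL-147 melanoma cells. The members are these 10 genes by name, of 64476 annotated genes. A gene was called bound where a PHF8 peak lay within 1 kb of any of its transcription start sites (TSSs) in all 3 replicates, and 16541 genes met this rule. PHF8 is a histone demethylase that removes repressive methyl marks from histone tails, and the study asked which genes it occupies in melanoma. SKMEL-147 is an established line of human melanoma cells. Of the 5 samples, 3 were chromatin immunoprecipitations with an anti-PHF8 antibody (replicates A, B1 and B2) and 2 were input chromatin without antibody (A and B). All came from this line and the labels name no treatment or genotype, so there was no condition to compare, and the labels do not say whether the replicates came from separate cultures.

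The Hippo pathway is a kinase cascade that limits tissue growth. The MST kinases, with the adaptor SAV1, activate LATS1 and LATS2, which with MOB1 proteins phosphorylate YAP and TAZ so that these stay in the cytoplasm. Without that phosphorylation YAP and TAZ enter the nucleus, bind TEAD factors at short DNA motifs, and switch on genes such as CCN1 and CCN2. In melanoma the pathway is known for its part in invasive cell states. A PHF8 peak at a promoter measures occupancy and says nothing on whether the gene is expressed.

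All 10 genes were bound, each with at least 1 promoter peak in every replicate, where 60.4% of the 19574 protein-coding genes with a symbol were bound. By fold enrichment, 2 of the 10 stood above the middle of the bound genes and the rest below it. Ranked by fold enrichment over background, the strongest promoter peaks of the 10 genes had a median mean percentile of 41.9 among the bound genes. That of all bound protein-coding genes with a symbol was 52.9. LATS2 was the highest at 66.6 ± 12.5 (SD, n = 3) and YAP1 the lowest at 8.49 ± 8.83 (SD, n = 3). Fold enrichment had its own scale in each library, with a median over all peaks of 18.9 in A and 11.8 in both B1 and B2, so genes were compared by percentile within a replicate. The number of ChIP fragments piled up at a summit and the number expected from background were recovered from the fold enrichment and p-value of each peak. The count intervals given for fragments are exact 95% Poisson intervals and cover counting error only.

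**Figure D1:**
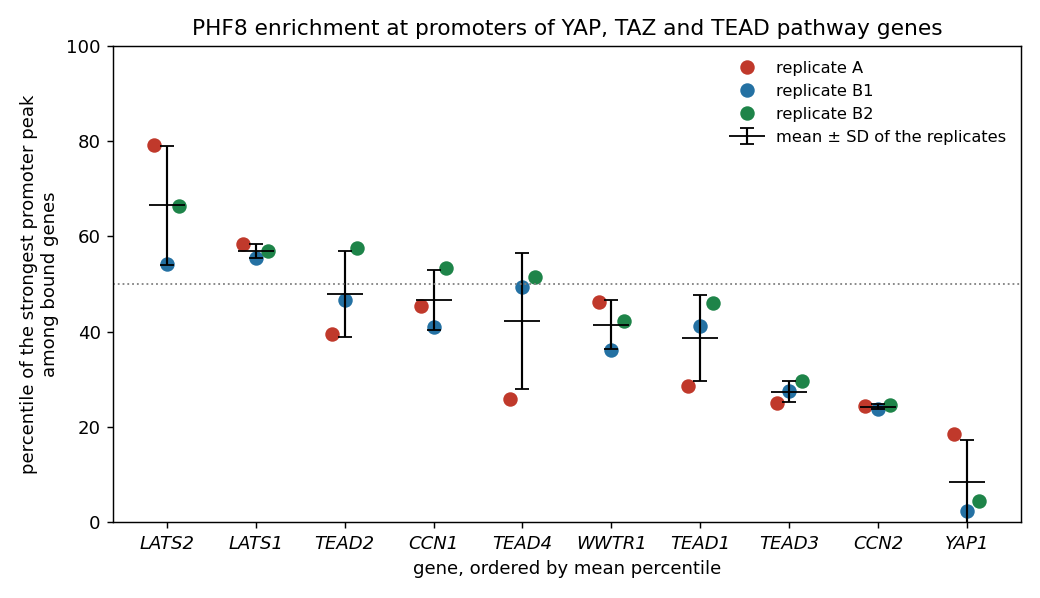
Percentile of the strongest promoter peak of each gene among the 16541 bound genes (vertical axis, 0 to 100) for each of the 10 genes in order of their mean, with 1 point per replicate and the mean ± SD as black bars. LATS2 and LATS1 have means above the dotted line at 50, and YAP1 lies lowest with 18.6, 2.45 and 4.40 in A, B1 and B2.

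LATS1 and LATS2, the kinases that phosphorylate YAP and TAZ, had the highest mean percentiles of the 10 genes by fold enrichment. By fragments LATS2 stood at 55.1 and LATS1 at 46.1, below CCN1 at 75.6, and LATS1 also below TEAD4 at 54.3 and TEAD3 at 46.7. LATS2 (ENSG00000150457, chr13:21547175-21635725 in GRCh37, minus strand) had a fold enrichment of 45.2, 19.8 and 21.7 in A, B1 and B2. These rested on 115 (94.9 to 138), 57 (43.2 to 73.9) and 65 (50.2 to 82.8) fragments, over the genome-wide background of 1.57, 1.93 and 2.04. The summits lay 162, 146 and 184 bp downstream of the TSS, in the untranslated region of the gene. LATS2 has 2 annotated TSSs, far apart, and the internal TSS had no peak in any replicate.

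LATS1 (ENSG00000131023, chr6:149979289-150039241, minus strand) reached a fold enrichment of 35.8, 20.1 and 19.4 in A, B1 and B2, on 91, 58 and 58 fragments. Its percentiles of 58.4, 55.5 and 57.0 were close together, with an SD of 1.48, and 7.38% of bound genes had an SD as small or smaller. A single peak of 973, 1104 and 882 bp covered the TSS in A, B1 and B2, but its summit moved within it. The summit lay 51 bp downstream of the nearest TSS in A and 92 bp downstream in B2, both in a coding exon of an annotated transcript, and 222 bp upstream of it in B1. The peak also met the TSS window of ENSG00000278899, a gene without a symbol.

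LATS2 and LATS1 were not separated by these data. The difference in percentile LATS1 minus LATS2 was -20.7, 1.26 and -9.37 in A, B1 and B2. Its mean was -9.61 ± 11.0 (SD, n = 3), with p = 0.50 in the exact two-sided sign-flip permutation test and 0.50 after Benjamini-Hochberg adjustment over the 9 paralog pairs tested. With 3 replicates this test cannot go below 0.25, so no pair could pass a threshold of 0.05.

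YAP1, a transcriptional coactivator at the end of the kinase cascade, had the lowest mean percentile of the 10 genes and the most divided PHF8 signal. In YAP1 (ENSG00000137693, chr11:101981178-102104155, plus strand) 4 separate promoter peaks were called in each replicate, from upstream of the gene into an intron, as the map of promoter peaks shows. Of the bound genes, 0.985% had 4 or more promoter peaks in every replicate, and YAP1 was among them. All but 1 of these peaks also met the TSS window of ENSG00000277459, a gene without a symbol. The peak upstream of the TSS had its summit 294, 323 and 276 bp upstream in A, B1 and B2. It held 47 (34.5 to 62.5), 27 (17.8 to 39.3) and 30 (20.2 to 42.8) fragments. By fold enrichment it reached 18.7 in A, and 5.33 and 5.70 in the B replicates.

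The background at this YAP1 peak differed between the libraries. It stood at the genome-wide value in A (1.57 fragments), and at 4.26 in B1 and 4.44 in B2, which is 2.20 and 2.17 times the genome-wide value of those libraries. The labels name a single input B beside B1 and B2, so both raised values may rest on the same input. In B2 the upstream peak was not the strongest by fold enrichment. A peak with its summit 93 bp downstream of a TSS, in the untranslated region, took that place with a fold enrichment of 5.91 on 17 (9.90 to 27.2) fragments. The other downstream peaks of YAP1 held from 11 to 17 fragments. Counted in fragments rather than in fold enrichment, YAP1 remained the lowest of the 10 genes, with percentiles of 14.8, 11.0 and 14.0 in A, B1 and B2. Its mean percentile by fold enrichment rested in large part on replicate A and was 3.57 without it.

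The sequence under the upstream YAP1 peak is shown because this peak recurred in all 3 replicates and holds the only TEAD motif within 500 bp of its summit in A. It covers 140 bases on either side of the summit in A (chr11:101980744-101981024, GRCh37, plus strand), and the capitals mark GGAATG, the reverse complement of the TEAD core motif CATTCC.
YAP1: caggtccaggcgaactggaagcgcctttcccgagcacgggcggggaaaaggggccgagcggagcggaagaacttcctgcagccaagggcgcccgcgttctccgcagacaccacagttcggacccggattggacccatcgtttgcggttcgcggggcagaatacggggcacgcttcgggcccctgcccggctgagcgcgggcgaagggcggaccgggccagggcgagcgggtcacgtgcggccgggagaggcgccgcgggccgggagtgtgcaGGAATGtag

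WWTR1 encodes TAZ, which shares the TEAD-binding and LATS-controlled design of YAP. Its PHF8 peak was stronger than that of YAP1 in every replicate. WWTR1 (ENSG00000018408, chr3:149235022-149454501, minus strand) had a fold enrichment of 30.9, 15.3 and 16.0 in A, B1 and B2, on 94 (76.0 to 115), 53 (39.7 to 69.3) and 59 (44.9 to 76.1) fragments. The percentiles were 46.2, 36.1 and 42.2. The difference YAP1 minus WWTR1 was -27.6, -33.7 and -37.8 in A, B1 and B2, a mean of -33.0 ± 5.10 (SD, n = 3), in the same direction in 3 of 3 replicates (exact two-sided sign-flip permutation test, p = 0.25, the smallest possible, and 0.375 adjusted over 9 pairs). By fragments the mean difference was -32.1.

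The bound promoter of WWTR1 is internal to the gene record. Its 11 TSSs fall into 6 clusters set more than 2 kb apart, and 1 cluster was bound in all 3 replicates. With a single TSS per gene, where its record begins, WWTR1 had no peak and it alone of the 10 genes lost its call. The summit of the strongest peak lay 302 bp upstream of the nearest TSS in A and 388 bp upstream in B1, in sequence that is intronic for the longer transcripts. In B2 the signal was called as 2 peaks of nearly equal fold enrichment, 16.0 with its summit 118 bp downstream of a TSS and 15.7 with its summit 297 bp upstream. The same promoter peaks met the TSS window of the antisense gene WWTR1-AS1. A further peak of 13 fragments, at an internal TSS, was called in B1 alone.

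The bases around the WWTR1 summit of A are shown because a TEAD motif lies 52 bp from that summit, and it was inside a peak in all 3 replicates (chr3:149376070-149376190, GRCh37, minus strand, capitals as above).
WWTR1: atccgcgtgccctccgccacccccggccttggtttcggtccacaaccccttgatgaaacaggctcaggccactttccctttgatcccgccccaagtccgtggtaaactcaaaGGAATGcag

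**Figure D2:**
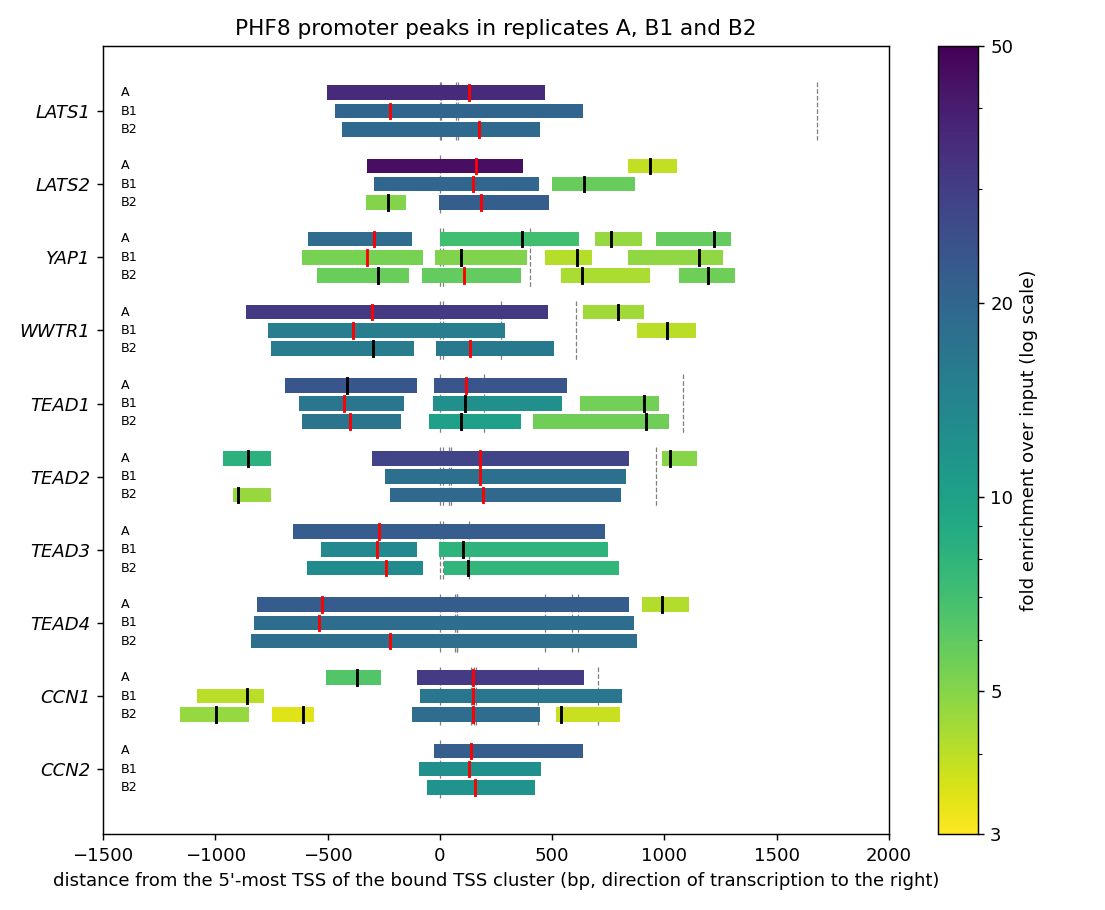
Promoter peaks of the 10 genes in replicates A, B1 and B2, as distance in bp from the 5′-most TSS of the bound TSS cluster with transcription to the right. Bars are peaks coloured by fold enrichment over background (log scale, marked as over input on the colour scale). Ticks are summits (red for the strongest promoter peak of the gene in that replicate) and dashed lines are annotated TSSs. YAP1 shows 4 separate peaks per replicate, CCN2 a single peak, and the 3 CCN1 summits are aligned. The internal peaks of WWTR1 in B1 and of TEAD1 in A lie outside the plotted range.

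The TEAD genes encode the factors through which YAP and TAZ reach DNA. All of TEAD1 to TEAD4 were bound, with mean percentiles from 27.4 ± 2.22 for TEAD3 to 47.9 ± 9.03 for TEAD2 (SD, n = 3). TEAD2 (ENSG00000074219, chr19:49843852-49865714, minus strand) had a fold enrichment of 28.3, 17.8 and 19.5 in A, B1 and B2, on 84, 56 and 64 fragments. Its main peak was wide, from 1031 to 1149 bp, and the summits fell within 14 bp of each other, 130, 131 and 144 bp downstream of the nearest TSS. TEAD2 lies next to DKKL1, and all of its promoter peaks met a TSS window of that gene as well, so the signal cannot be assigned to TEAD2 alone.

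TEAD1 (ENSG00000187079, chr11:12695968-12966284, plus strand) had a pair of neighbouring main peaks, with the upstream peak ending before its most 5′ TSS and the other lying over it. The upstream peak held 86, 50 and 53 fragments and the peak over the TSS 66, 37 and 32. Their fold enrichments were nearly equal in A, at 23.7 upstream and 23.8 over the TSS. In B1 and B2 the upstream peak was the stronger, at 16.5 against 12.3 and at 16.9 against 10.3. The strongest peaks of the 3 replicates shared no base for TEAD1, as they did not for YAP1. Among the 10 genes 8 had strongest peaks that shared a base in all replicates, where 90.4% of bound genes did.

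TEAD1 was also the only gene of the 10 with a peak in its body outside every TSS window. It lay in an intron 18661 bp downstream of the nearest TSS in B1 and 18734 bp in B2, with 21 (13.0 to 32.1) and 16 (9.15 to 26.0) fragments and a fold enrichment of 5.00 and 3.73. No such peak was listed for A, where a weak peak of 16 fragments stood instead at an internal TSS. Each of these weak sites was thus listed in some of the replicates and not in the others.

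TEAD3 (ENSG00000007866, chr6:35441374-35464856, minus strand) had its strongest summit upstream of the TSS in all replicates, by 270, 281 and 240 bp. Fold enrichment was 22.1, 13.3 and 13.1 in A, B1 and B2, on 74, 59 and 70 fragments. The background under these summits was 1.53, 1.82 and 2.17 times the genome-wide value. By fragments TEAD3 stood higher, with percentiles of 33.0, 46.5 and 60.5, than by fold enrichment, with 25.1, 27.6 and 29.6.

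TEAD4 (ENSG00000197905, chr12:3068496-3149842, plus strand) had the widest main peak of the 10 genes, of 1660, 1690 and 1722 bp, against a median of 814, 712 and 663 bp for the strongest peaks of bound genes. Its summit lay 524, 539 and 221 bp upstream of the nearest TSS. Fold enrichment was 22.3, 18.6 and 18.1, on 111, 65 and 58 fragments. By fold enrichment the percentile was 25.8 in A, the lowest, and 49.4 and 51.6 in B1 and B2. By fragments it was 63.3 in A, the highest, and 53.6 and 46.0 in B1 and B2. The background under the summit was 2.56 times the genome-wide value in A against 1.32 and 1.11 times in B1 and B2.

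The bases around the TEAD4 summit of A are shown because they hold a TEAD motif 43 bp from that summit, in sequence outside the gene (chr12:3067912-3068032, GRCh37, plus strand, capitals as above).
TEAD4: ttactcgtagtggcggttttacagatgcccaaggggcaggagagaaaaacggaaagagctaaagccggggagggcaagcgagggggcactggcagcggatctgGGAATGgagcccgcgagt

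Within the TEAD family, TEAD3 was the lowest in mean percentile. TEAD2 exceeded TEAD3 by 14.5, 19.1 and 27.9 points, a mean of 20.5 ± 6.86 (SD, n = 3, p = 0.25 in the exact two-sided sign-flip permutation test, 0.375 adjusted over 9 pairs). TEAD1 exceeded TEAD3 by 11.2 ± 6.84 and TEAD3 minus TEAD4 was -14.8 ± 12.3. Both had the same sign in 3 of 3 replicates and p = 0.25 in the exact permutation test. In A, B1 and B2 TEAD1 exceeded TEAD3 by 3.48, 13.6 and 16.5 points. TEAD3 minus TEAD4 was -0.671, -21.9 and -22.0, so these genes were nearly level in A. By fragments the mean difference was -0.774 for TEAD2 minus TEAD3 and -7.00 for TEAD1 minus TEAD3, so the place of TEAD3 below TEAD1 and TEAD2 did not hold on that scale. TEAD3 minus TEAD4 was -7.63 by fragments (p = 0.75 in the exact permutation test), and in B2 TEAD3 then stood above TEAD4, at 60.5 against 46.0. By fold enrichment TEAD4 did not differ beyond the spread between replicates from TEAD1 (TEAD1 minus TEAD4, -3.66 ± 5.77) or from TEAD2 (TEAD2 minus TEAD4, 5.64 ± 8.30). By fragments TEAD1 minus TEAD4 was -14.6, with TEAD1 lower in 3 of 3 replicates (p = 0.25 in the exact permutation test, the smallest possible), and TEAD2 minus TEAD4 was -8.41.

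**Figure D3:**
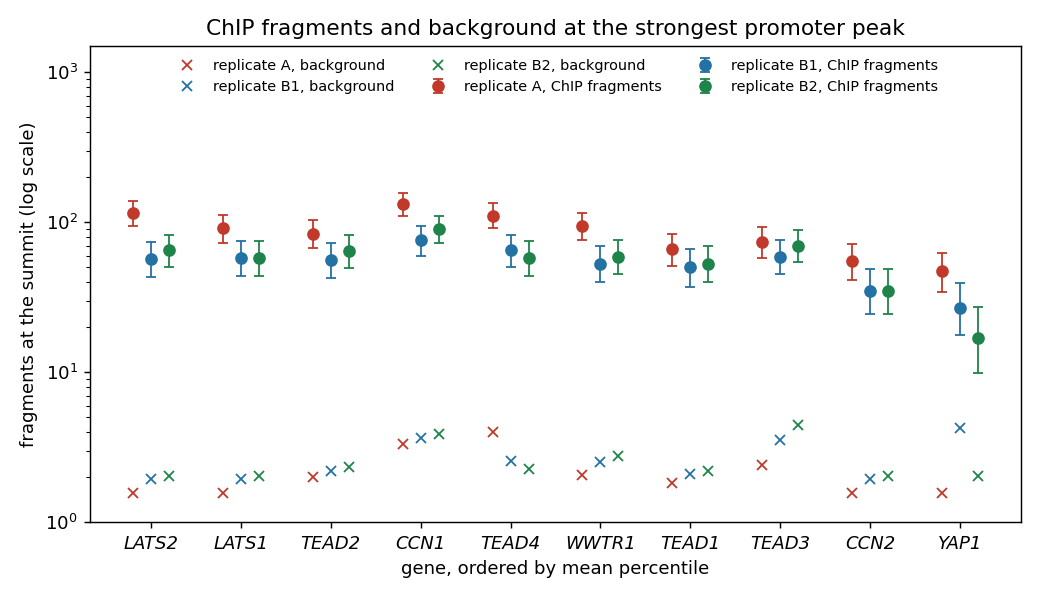
ChIP fragments at the summit of the strongest promoter peak (circles with exact 95% Poisson intervals) and background fragments expected there (crosses) for the 10 genes in replicates A, B1 and B2, on a log axis. CCN1 has the most fragments in every replicate, 132, 76 and 90 in A, B1 and B2, and YAP1 the fewest, 47, 27 and 17.

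CCN1 and CCN2 encode secreted matricellular proteins and serve widely as direct readouts of YAP and TAZ activity. CCN1 (ENSG00000142871, chr1:86046444-86050272, plus strand) had its strongest summit at the same base in all 3 replicates, position 86046593, in the untranslated region and 5 bp upstream of the nearest annotated TSS. Among the 10 genes 5 had strongest summits within 50 bp of each other in all replicates, against 65.7% of bound genes. The CCN1 peak had a fold enrichment of 30.6, 16.5 and 18.6 in A, B1 and B2, on 132 (110 to 157), 76 (59.9 to 95.1) and 90 (72.4 to 111) fragments. The background there was raised in each library, to 2.14, 1.90 and 1.90 times the genome-wide value. By fragments CCN1 was the highest of the 10 genes, at percentiles of 79.7, 66.5 and 80.6, while by fold enrichment it stood at 45.3, 41.1 and 53.5.

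Around CCN1 weaker peaks were scattered. Peaks 368 bp upstream of the most 5′ TSS in A, 858 bp in B1, and 611 and 999 bp in B2 held 16 to 27 fragments each. Those at 858 and 999 bp also met the TSS window of ENSG00000272691. A peak 47785 bp downstream of the nearest TSS in B1 and 47932 bp in B2 was the only peak within 50 kb of any of the 10 genes that lay outside the gene records and outside every TSS window. It held 24 and 22 fragments and was not listed for A.

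CCN2 (ENSG00000118523, chr6:132269316-132272512, minus strand) was the simplest case. It has 1 annotated TSS and had a single peak in each replicate, with no other peak within 50 kb of the gene. LATS2 and YAP1 likewise had no peak within 50 kb beyond those at their promoters. Fold enrichment at CCN2 was 21.8, 12.3 and 11.8 in A, B1 and B2, on 55 (41.4 to 71.6), 35 (24.4 to 48.7) and 35 (24.4 to 48.7) fragments over the genome-wide background. The summits lay 138, 131 and 155 bp downstream of the TSS, in the untranslated region. Its percentiles of 24.5, 23.8 and 24.6 had an SD of 0.463, and 1.36% of bound genes had an SD as small or smaller. The peak also met the TSS window of the noncoding gene LINC01013, and such shared peaks cannot be assigned to either gene.

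CCN1 exceeded CCN2 in every replicate, by 20.9, 17.3 and 28.8 percentile points. The mean was 22.3 ± 5.90 (SD, n = 3, p = 0.25 in the exact two-sided sign-flip permutation test, 0.375 adjusted over 9 pairs), and by fragments it was 56.4. The direction was the same on both scales and the size was not, and the background was raised at CCN1 and at its genome-wide value at CCN2.

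The 120 bases directly upstream of the most 5′ TSS of CCN1 (chr1:86046324-86046443, GRCh37, plus strand) and of CCN2 (chr6:132272513-132272632, GRCh37, minus strand) are shown because both hold the TEAD core motif together with the letters TATAAA of a TATA box, all in capitals.
CCN1: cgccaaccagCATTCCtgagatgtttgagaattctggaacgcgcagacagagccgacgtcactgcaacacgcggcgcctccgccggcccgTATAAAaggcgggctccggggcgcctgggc
CCN2: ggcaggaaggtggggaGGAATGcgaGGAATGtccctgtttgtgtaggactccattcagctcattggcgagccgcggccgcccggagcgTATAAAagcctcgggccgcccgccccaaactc

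Of the 11819 bound protein-coding genes, 4.36% held CATTCC on either strand in the 120 bases upstream of the most 5′ TSS, 1.79% held TATAAA on the strand of the gene, and 8 genes held both (0.0677%). CCN1 and CCN2 are 2 of those 8. The search for TATAAA was chosen after these sequences had been seen. In CCN2 the motifs in this window lie 95 and 104 bp upstream of the TSS and a further one lies 169 bp upstream. No CCN2 peak contained any of the 3 in full, since the peaks reached only 27, 92 and 59 bp upstream of the TSS. In CCN1 the motif lies 110 bp upstream of the most 5′ TSS and was inside a promoter peak in B2 only. The strongest PHF8 summits of both genes thus lay downstream of these motifs, while the weaker upstream peaks of CCN1 had theirs upstream of its motif.

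Over the 10 genes, CATTCC on either strand lay within 250 bp of the strongest summit of A in 6 (YAP1, WWTR1, TEAD1, TEAD4, LATS2 and CCN2), where 15.9% of bound genes had it. The count depended on which summit was used. It was 5 with the summits of B1, against 15.6% of bound genes, and 2 with those of B2 (LATS2 and CCN2), against 15.8%. In YAP1 and TEAD1 the strongest peak of B2 shared no base with that of A. In WWTR1 and TEAD4 the strongest peaks of A and B2 overlapped and the summit lay elsewhere. Within 500 bp the count was 8 in each replicate, against 33.4%, 33.2% and 33.2% of bound genes. TEAD2 and LATS1 held no such letters within 500 bp of the summit in any replicate. The median GC share of the 10 genes within 250 bp of the summit was 72.3%, 67.4% and 72.1%, against 68.3% for bound genes in each replicate. TEAD3 was the most GC-rich, at 82.2%, 81.6% and 82.0%.

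The side of the TSS on which PHF8 peaked differed between the genes. The strongest summit lay upstream of the nearest TSS in every replicate for 4 of the 10 genes (TEAD1, TEAD3, TEAD4 and CCN1), against 29% of bound genes. For TEAD1 in A and for CCN1 the nearest TSS was not the most 5′ of the gene, and these summits lay within transcripts that start further upstream. LATS2, TEAD2 and CCN2 had the summit downstream in every replicate, by 131 to 184 bp in B1 and B2 and by 130 to 162 bp in A.

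In the order of mean percentiles LATS2 stood first, followed by LATS1 at 57.0 ± 1.48, TEAD2 at 47.9 ± 9.03, CCN1 at 46.6 ± 6.30, TEAD4 at 42.3 ± 14.3, WWTR1 at 41.5 ± 5.08, TEAD1 at 38.6 ± 9.01, TEAD3 at 27.4 ± 2.22, CCN2 at 24.3 ± 0.463 and YAP1 (SD, n = 3 each). Neighbours from TEAD2 down to TEAD1 did not differ beyond the larger of their SDs, nor did LATS2 and LATS1. The step from LATS1 to TEAD2 (9.038) was barely above the larger SD (9.035), and the steps from TEAD1 to TEAD3 (11.2), from TEAD3 to CCN2 (3.13) and from CCN2 to YAP1 (15.8) were larger than theirs. The SDs of the 10 genes ranged from 0.463 to 14.3, and the median SD over bound genes was 6.64.

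The rest of the Hippo pathway was bound in 27 of 32 genes (84.4%, beside 60.4% of protein-coding genes with a symbol). All 9 Hippo kinases and adaptors were bound, with a median of their mean percentiles of 69.0. The highest was TAOK1, a kinase that activates the MST kinases, at 97.7, with fold enrichments of 60.2, 39.4 and 39.4. The lowest was SAV1, the scaffold of the MST kinases, at 28.9. Of these 9 genes 6 lay above 50.

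Among scaffold and junction genes, which tie the cascade to cell contacts, 16 of 19 were bound, with a median of 36.7. The share bound was 84.2%, beside 60.4% of protein-coding genes with a symbol. TJP1, a tight-junction scaffold, was the highest at 97.8, and FAT4, an atypical cadherin, the lowest at 5.05. The cadherins DCHS1 and DCHS2 had no promoter peak in any replicate, and WTIP, a LIM-domain protein, had a peak of 12 fragments in A alone. Of the TEAD cofactors, which bind TEAD in place of YAP and TAZ, VGLL3 (23.9) and VGLL4 (12.1) were bound. VGLL1 had no peak and VGLL2 a peak of 15 fragments in B2 alone. Of these 4 cofactors 50% were bound, beside 60.4% of protein-coding genes with a symbol.

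Other genes in wide use as transcriptional readouts of YAP and TAZ were bound in 15 of 19 cases. This was 78.9%, beside 60.4% of protein-coding genes with a symbol. The median of their mean percentiles was 26.9, beside 52.9 for all bound protein-coding genes with a symbol. CRIM1, a transmembrane protein that binds growth factors, was the highest at 67.4, and TGFB2, a TGFβ ligand, the lowest at 5.60. ANKRD1 and CCDC80 had no peak in any replicate. MYOF had peaks of 11 and 18 fragments and RBMS3 peaks of 15 and 20 fragments in A and B1 and none in B2. CCN1 and CCN2 were thus above and just below the median of the other readout genes.

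**Figure D4:**
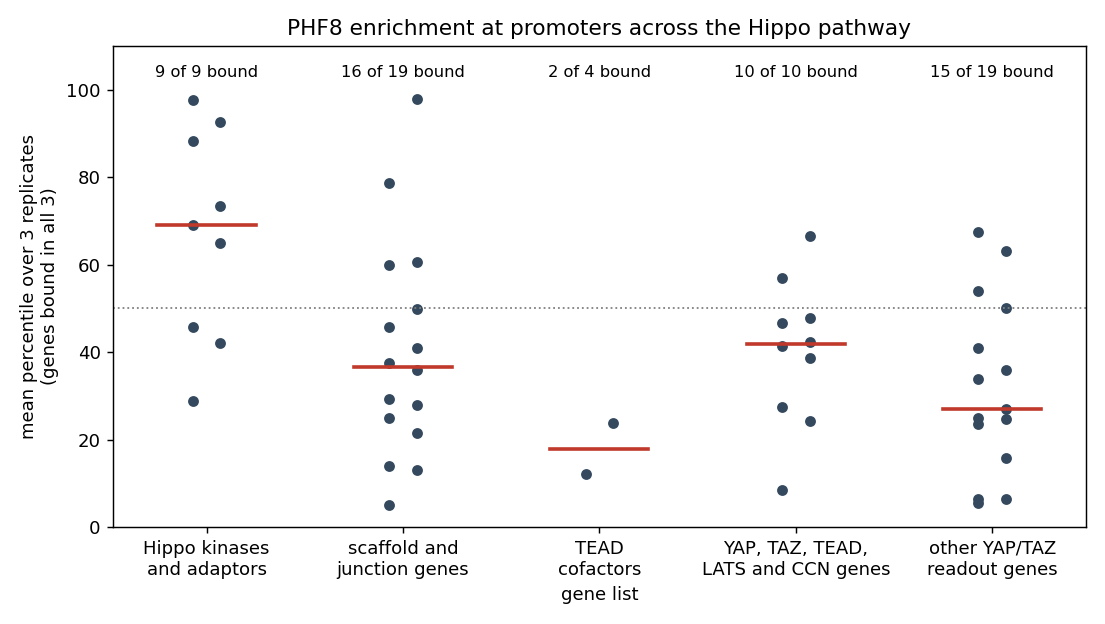
Mean percentile over 3 replicates of the strongest promoter peak (vertical axis) for the genes of each list that were bound in all 3 replicates, with 1 point per gene and the list median as a red bar. The number bound of the number in the list stands above each column. The medians are 69.0 for Hippo kinases and adaptors, 36.7 for scaffold and junction genes, 18.0 for TEAD cofactors, 41.9 for the 10 YAP, TAZ, TEAD, LATS and CCN genes and 26.9 for the other readout genes, and the dotted line marks 50.

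Over whole libraries, 21506 peaks were listed for A, 20882 for B1 and 20120 for B2, with a median of 54, 39 and 40 fragments at the summit and at least 8, 8 and 10. Read totals were not given in the sources used here, so depth was not known directly. The genome-wide background was 1.57, 1.93 and 2.04 fragments in A, B1 and B2. It was lowest in A, where the median at summits was highest, so these values order the libraries differently. Whether either follows depth was not tested. A gene without a listed peak may still carry PHF8 below the smallest counts listed. Of 7 melanocyte lineage genes, MITF, SOX10 and PMEL were bound and MLANA, TYR, TYRP1 and DCT were not. The share bound was 42.9%, beside 60.4% of protein-coding genes with a symbol. This is given as occupancy and does not check the identity of the line.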

How the data were processed

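PHF8 ChIP-seq was done in 3 replicates of SKMEL-147 cells, with 2 inputs that enter only through the peak values. According to the study's methods and the labels, reads were aligned by the authors to hg19 (GRCh37) with Bowtie2, and narrow peaks were called with MACS for each replicate against input. The submitters' processing notes also name bcl2fastq and Picard. The deposited fold enrichment is a linear ratio over background at the summit, and the deposited p-values and q-values are −log10 values. The deposited score was not used. The study's cutoffs (fold enrichment above 1.5 and a q-value read as below 0.05) removed no peak. The 16541 genes called bound here are of every annotated type, and 11819 of them are protein-coding genes with a symbol. The study reported far fewer PHF8 target genes than either number, and the reason was not tested. A gene called bound here is therefore not necessarily on the study's own target list.

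TSSs were taken from every transcript of GENCODE release 44 lifted to GRCh37 (221328 gene and TSS pairs). Each gene was given its promoter peak of highest fold enrichment, and its percentile among bound genes in that replicate. Fragments at a summit were obtained as the whole number that, with a background value, satisfies the deposited pair of fold enrichment (1 added to both counts) and Poisson p-value. This was met within 0.001 for 100% of peaks, and the procedure was tested on simulated data. Sequences were read from GRCh37. Python 3.11.15, numpy 2.4.6, scipy 1.17.1 and pandas 2.3.3 were used. The 9 paralog pairs were compared with a sign-flip permutation test over replicates, exact and two-sided, with Benjamini-Hochberg adjustment. With 3 replicates its p is 0.25 whenever all differences have the same sign, whatever their spread. It speaks only for these libraries, of which B1 and B2 share a letter with input B.

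The members and gene lists were chosen with earlier results of these data known. Named were the 10 members, genes sharing their promoter peaks, the highest, lowest and unbound genes of each list, and members' peaks outside TSS windows within 50 kb. Alternatives tried were stricter cutoffs, other windows, 1 TSS per gene, summits in place of peaks, fragments in place of fold enrichment, protein-coding genes only, other overlap rules, other motif spans, and leaving out each replicate.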

Additional observations from a re-analysis of the deposited data

How the results depend on the processing

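The 10 genes were bound under all alternatives tried except 1 TSS per gene, which gave 9 (without WWTR1). That setting lowered the Hippo pathway count from 27 to 19, with 54.1% of protein-coding genes bound, and left the readout count at 15. A peak in at least 2 replicates, or leaving out B2, raised the readout count to 17. Of 109 recomputed mean percentiles 99 moved by less than the SD of their replicates. That SD is each gene's own, so a gene with a wide SD could shift far within it. By fragments TEAD4 went from 42.3 to 54.3 and LATS2 from 66.6 to 55.1, both within their SD. Shifts of at least the SD included those by fragments, to 46.7 for TEAD3, 46.1 for LATS1, 75.6 for CCN1 and 19.2 for CCN2. Ranking among protein-coding genes only gave 24.8 for TEAD3, 54.9 for LATS1 and 21.7 for CCN2, and a fold enrichment above 4 gave 23.6 for CCN2. Leaving out a replicate gave 24.4 to 25.2 for CCN2. Of 44 recomputed pair differences 3 turned their direction, all by fragments: TEAD1 minus TEAD3 at -7.00, TEAD2 minus TEAD3 at -0.774 and TEAD2 minus TEAD4 at -8.41. The count with a TEAD motif fell from 6 to 3 within 100 bp of the summit of A, against 6.56% of bound genes. In B1 and B2 that span gave 1 and 0, against 6.34% and 6.64% of bound genes. Within 250 bp of the summits of B2 the count was 2, against 15.8%. The pair YAP1 and WWTR1 could not be compared with 1 TSS per gene, since WWTR1 had no peak there. No paired analysis of ChIP against input was possible, because the inputs enter only through the values of each ChIP peak. ChIP and input were therefore not compared as groups. The paralog differences were taken within each replicate. Beyond the ranking itself, the cause of these changes was not tested.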
